A study of Mus musculus with 20 samples.

Results

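This account describes liver gene expression in NZO mice set against 4 lean inbred strains, and above all the genes private to NZO: those for which all 4 NZO livers lay above, or all 4 below, every one of the other 16 livers. Of 20635 genes tested, 815 (3.95%) were private to NZO, 420 of them higher (2.04%) and 395 lower (1.91%). The arrays held livers of male NZO/HiBomDife mice (NZO) and of males of 4 lean strains, with 4 mice a strain and 1 array a mouse. The lean strains were C57BL/6, written B6, and DBA/2J, written DBA, together with C3HeB/FeJ, written C3H, and the 129P2/OlaHsd mice, written 129Ola. All 20 mice ate a diet with 45% fat and were killed at 6 weeks of age, so no liver came from a mouse on a low-fat diet and the data hold no measure of diet. The series describes NZO as obese and susceptible to diabetes, DBA and C3H as lean and susceptible, and B6 and 129Ola as lean and resistant. Inbred mice of 1 strain share 1 genome, so the 4 livers of a strain give the spread within that genome, and strain, body weight and glucose tolerance cannot be told apart for NZO.

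Each array measured RNA with short DNA probes in 1 colour (Cy3). A level is the log2 signal of a gene's brightest probe relative to the 75th percentile of its array, so 0 is a bright probe and about -5 is near background. Between 40.0% and 59.1% of probes were well above background on an array, and between 49.2% and 54.0% on the 4 NZO arrays, and no spot was saturated. Signals of C3H and 129Ola were extracted from the scans with another Feature Extraction protocol (GE1_1105_Oct12, against GE1_1100_Jul11 for NZO, B6 and DBA) and scanned on days of their own. A difference of NZO from C3H or 129Ola therefore cannot be told apart from that protocol, and every gene below was also set against B6 and DBA alone. Differences are given as NZO minus the mean of the 4 other strain means, in log2 units with the standard error of the limma fit over 20 arrays, and were called at an adjusted p (Benjamini-Hochberg over 20635 genes) under 0.05. The 4 values of a gene in NZO follow the mice numbered 3, 7, 9 and 11.

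NZO is a polygenic model of obesity and type 2 diabetes in which males develop fatty liver and insulin resistance. The liver of a mouse carries out most of the body's bile acid synthesis, drug metabolism and lipoprotein traffic, and in males the pulsed secretion of growth hormone keeps a set of female genes, several cytochrome P450 genes among them, at low levels. Interferon-stimulated genes code for antiviral proteins and are switched on together by interferon. The probes were designed on a reference genome, and how well each one matches the NZO genome was not tested.

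NZO livers resembled each other more than they resembled other strains. Levels of any 2 NZO arrays correlated at 0.972 to 0.989 over the genes, and those of an NZO array and another strain's at 0.935 to 0.971. Mean correlations of NZO arrays were 0.963 with B6, 0.962 with DBA, 0.955 with C3H and 0.948 with 129Ola; genes are not independent replicates, so these are descriptions. The 14 measured hepatocyte markers bore out the labelled tissue: all of them, among them Alb, Ttr and Apoa1, were well above background on every NZO array, and their mean level was 9.24 to 9.39 in NZO mice and 9.13 to 9.38 in the other mice.

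Against the mean of the 4 strains, 3033 genes were higher in NZO (14.7%) and 3533 lower (17.1%). Against B6 and DBA alone, 2352 were higher (11.4%) and 1979 lower (9.59%), which makes 31.8% and 21% of genes called in either direction. NZO shared 2 scan days with B6 and DBA, and with scan day as a block the counts against those strains were 1817 higher and 1568 lower. When arrays were instead scaled on the probes above background on all 20 of them, the split against B6 and DBA turned to 1952 higher and 2590 lower. All 815 private genes passed the threshold against the mean of 4, which their selection nearly fixes. Of these, 390 higher and 391 lower (95.8% in all, 3.78% of genes tested) also passed it against B6 and DBA. The selection fixes the sign of that difference too, since private genes lie beyond every B6 and DBA mouse. A stricter demand, past the threshold against each of the 4 strains in turn, was met by 325 of the 420 private higher genes and 342 of the 395 private lower ones, while over all genes 1.86% met it upward and 2.43% downward. Because the values of these mice chose the private genes, their differences describe them and are no independent test of them.

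**Figure D1:**
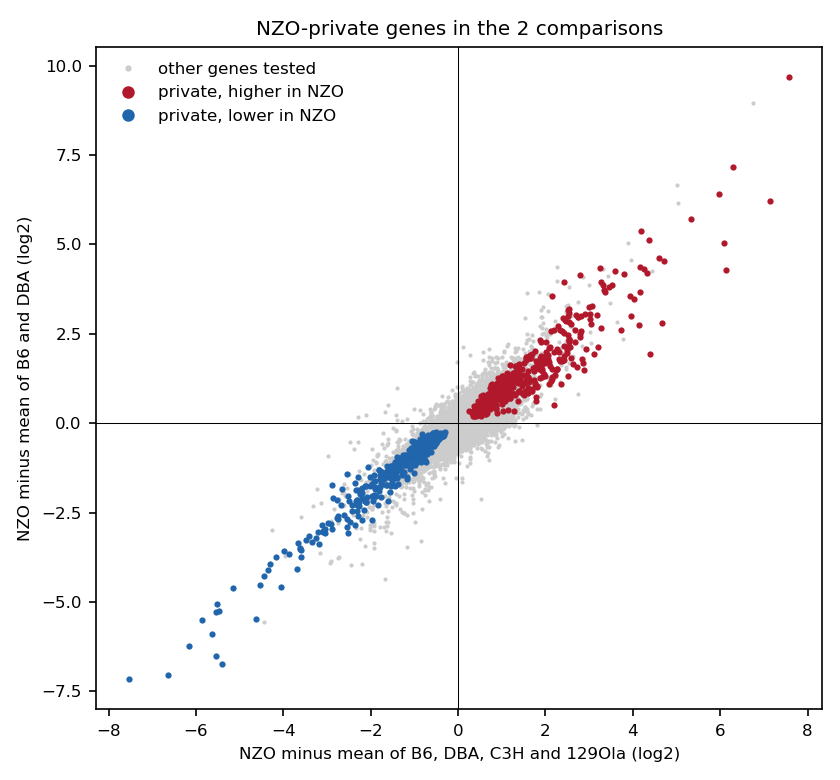
Each point is a gene, with NZO minus the mean of B6, DBA, C3H and 129Ola across and NZO minus the mean of B6 and DBA up, both in log2 units. The 420 private genes higher in NZO are red, the 395 lower are blue and the other genes tested are grey. The definition of private fixes the sign of a private gene in both comparisons.

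Most private genes were separated by a narrow margin. The gap between the nearest NZO mouse and the nearest other mouse had a median of 0.24 log2 units for the higher genes and 0.22 for the lower ones. It ran from 0.0002 at the edge, where the nearest gene left out overlapped by 0.0005, up to 5.85 for 4930581F22Rik among lower genes. A gap over 1 log2 unit was found for 57 higher and 62 lower genes. The median difference from the mean of 4 was 1.24 for private higher genes and -1.10 for private lower ones, against -0.01 over all genes.

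Counted the same way, every other strain had private genes too. NZO had 815, B6 had 739 (3.58%), DBA 679 (3.29%), C3H 955 (4.63%) and 129Ola 3119 (15.1%). For C3H and 129Ola this number cannot be told apart from their extraction protocol and scan day. With a gap over 1 log2 unit the numbers were 57 higher and 62 lower for NZO, 43 and 37 for B6, 34 and 28 for DBA, 19 and 33 for C3H, and 39 and 71 for 129Ola. The difference between strains in these counts was not tested.

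**Figure D2:**
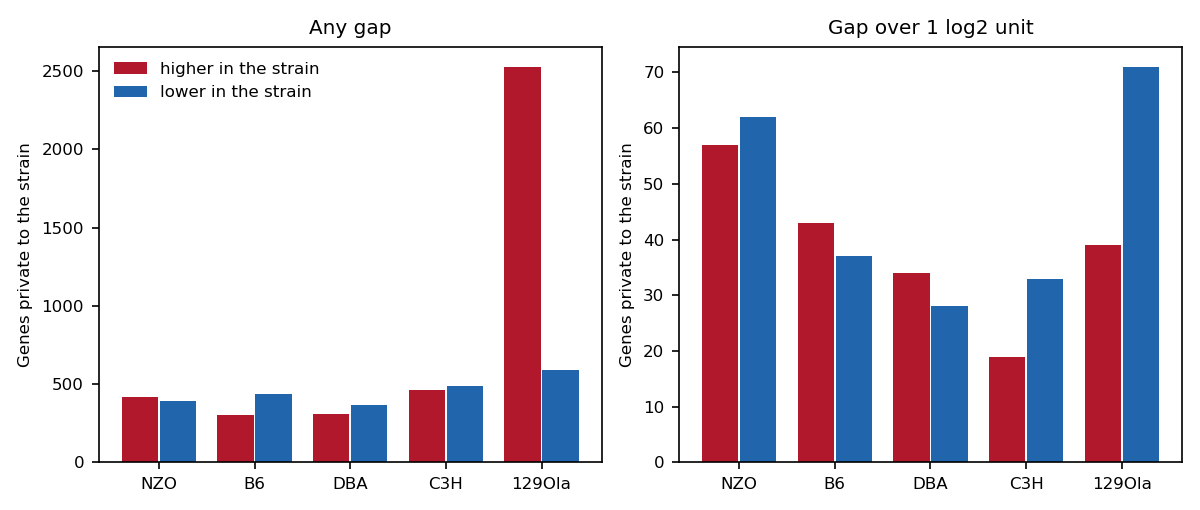
Bars give the number of genes for which all 4 mice of a strain lay above (red) or below (blue) all 16 other mice, for any gap (left) and for a gap over 1 log2 unit (right). NZO had 420 and 395 for any gap and 57 and 62 for the wider gap, and 129Ola had the most for any gap.

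Of the 815 private genes, 598 had a RefSeq symbol and 217 did not. Both sets passed a filter that asked 1 strain or more for a signal above background in all its mice. Of the private higher genes 292, and of the lower ones 309, were above background on all 20 arrays. In 13 of the higher genes no array outside NZO was above background, and in 36 of the lower genes no NZO array was. Those 13 passed the filter through NZO alone and could only come out higher. A further tested probe existed for 223 private genes. Of these 296 further probes, 242 (81.8%) had the same sign as the brightest one, against 64.2% of 7501 further probes of other genes, and 188 passed the threshold in the same direction, 99 were themselves private in it and 21 passed in the opposite one. Probes of a gene share its RNA and its array, so this is a description.

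Among the named genes with the largest differences upward, several are not known as liver genes. Akr1c18, a 20-alpha-hydroxysteroid dehydrogenase that inactivates progesterone, was at 5.01, 4.77, 5.04 and 4.71 in the NZO mice, against -4.12 to 0.74 (median -2.42) in the other 16. No 129Ola array had it above background, so that NZO was at least 134-fold higher than the mean of 4, and it was 6.22 ± 0.35 higher than B6 and DBA in log2 units. Its probe lies at chr13:4131895-4131954 (mm9). All 4 NZO livers stood clear of all others by 3.97 log2 units. Syt10, a synaptotagmin that senses calcium in vesicle release, was at 4.13, 3.82, 4.23 and 3.19 in NZO and at -4.14 to 0.34 (median -3.04) in the others, with C3H alone near 0 (-0.43 to 0.34). NZO was at least 74.3-fold higher than the mean of 4 strains for Syt10. Both genes had 1 tested probe.

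Further genes with large upward differences follow. Trim34a, of the tripartite motif family of antiviral proteins, was at 2.33, 2.01, 2.39 and 2.65 in NZO, with B6 next at 1.22 to 1.53 and the other strains at or under -2.23 on average. The bound against the mean of 4 was at least 17.4-fold. A second Trim34a probe differed by 1.19, in the same direction. Dct, a melanin-synthesis enzyme, was at 6.79, 6.36, 6.41 and 6.68 in NZO and at 5.92 to 6.24 in DBA, 2.97 to 3.27 in B6 and 3.44 to 4.95 in C3H, and was below background in all 4 129Ola mice, so it is private to NZO by only 0.12 log2 units. Myom3, a protein of the muscle M-band, was at 4.05, 3.56, 3.65 and 4.33 in NZO, against -1.93 to 1.33 (median -0.68). Skeletal muscle markers had a mean level of 2.16 in NZO mouse 7 and of -2.80 to -2.10 in the other 3 NZO mice, while Myom3 in mouse 7 was the lowest of the 4. In whole liver, more cells of a type and more RNA per cell cannot be told apart, and the part of muscle in the Myom3 result was not tested beyond these values. Mirg, a noncoding RNA of the imprinted Dlk1 region, was at 2.69, 2.34, 2.50 and 1.69 in NZO and -3.07 to -0.57 elsewhere by its brightest probe, but its other probe gave -0.19 (adjusted p = 0.59 by limma). Olfr701, an olfactory receptor gene, A4gnt, a mucin glycosyltransferase, and 4933409K07Rik were at least 9.60-fold, 10.5-fold and 10.7-fold higher than the mean of 4, and no C3H or 129Ola array had any of them above background.

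The 6 named genes with the widest upward gaps among those above background on all 20 arrays included surface proteins and a P450. Ly6a, the stem-cell antigen Sca-1, was at 4.66, 5.70, 5.41 and 4.73 in NZO, against -0.46 to 2.03 (median 1.11), a difference of 4.16 ± 0.20. Ly6c1, a surface protein of monocytes and endothelial cells, was at 5.87, 6.74, 6.42 and 5.88, against 2.70 to 3.86 (median 3.28). For both, NZO mice 7 and 9 were the higher pair and every NZO mouse was at least 2.01 log2 units above any other mouse. Bin2, a membrane-bending protein of blood cells, differed by 3.18 ± 0.15, and Guca1a, a guanylate cyclase activator known from photoreceptors, by 2.99 ± 0.11. Cyp3a41b, a female-type cytochrome P450, was at 6.69, 6.27, 6.84 and 6.76 in NZO, against -1.53 to 3.91 (median 0.72), and DBA mouse 15 had the 3.91 that was highest outside NZO. Cyp3a41b has a near-identical neighbour, Cyp3a41a, which its probe may also bind.

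**Figure D3:**
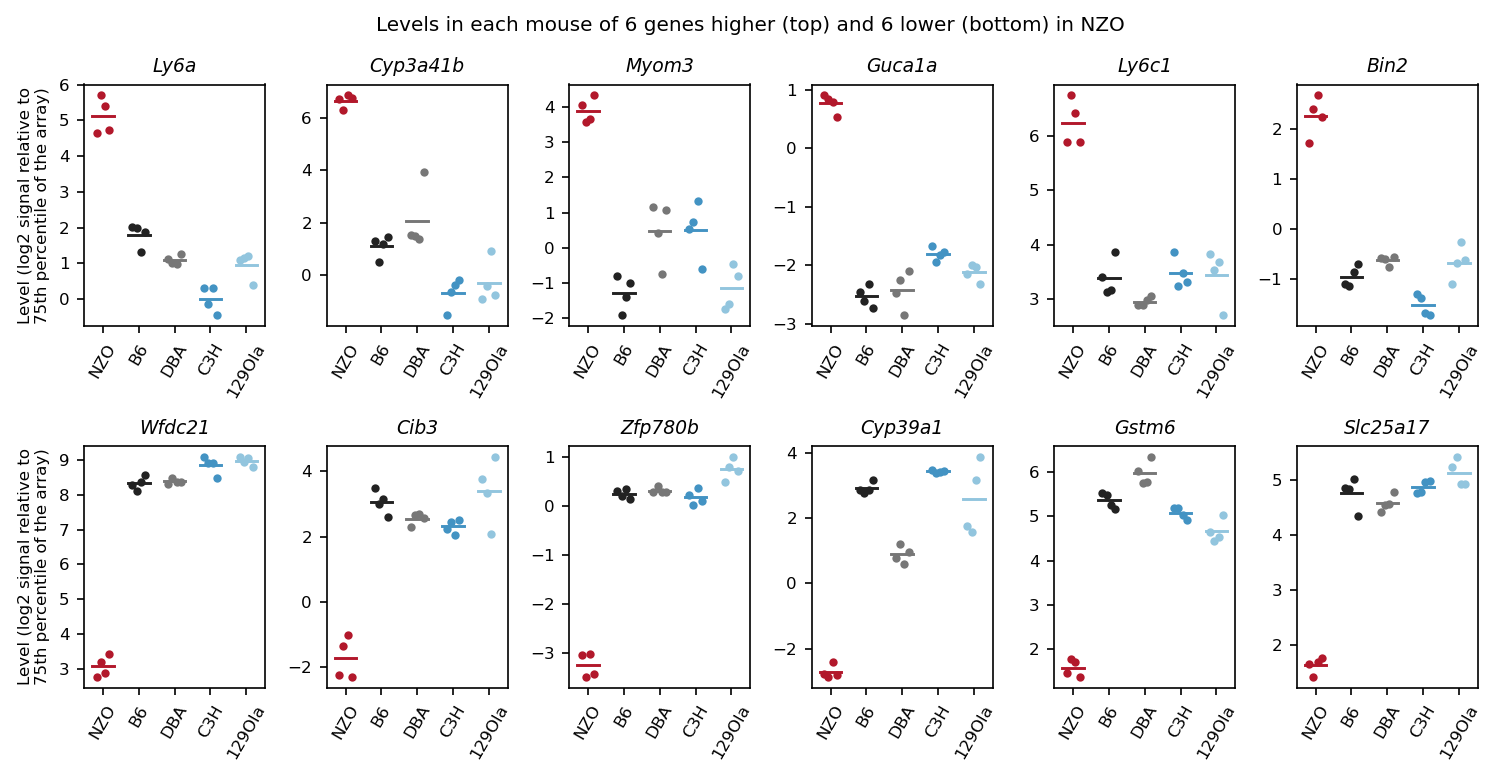
Each point is 1 mouse and each line the mean of 4, as log2 signal relative to the 75th percentile of the array, with a scale of its own for each gene. In the 6 upper genes the NZO mice lie above all others by 1.98 to 2.63 log2 units, and in the 6 lower genes they lie below all others by 2.60 to 4.68.

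Downward, several of the largest differences came from probes whose signal was below background in all NZO mice. Adrb3, the beta-3 adrenergic receptor of fat cells, was below background in all 4 NZO mice (-5.10, -4.18, -4.57 and -4.51) and above it in the other 16 (-0.56 to 3.80 (median 2.48)), at least 65.0-fold lower than the mean of 4 and at least 86.6-fold lower than B6 and DBA. A second Adrb3 probe differed by -3.00. Pole4, a subunit of DNA polymerase epsilon, was at -4.65, -5.99, -6.04 and -4.67 in NZO and -2.01 to 1.38 (median 0.43) elsewhere, at least 19.3-fold lower. Cd207, the lectin langerin of dendritic cells, was at -5.17, -4.52, -6.16 and -5.91 in NZO, against -1.57 to 1.08 (median 0.21), at least 16.1-fold lower. No NZO array had the brightest probe of any of these 3 genes above background. 4930581F22Rik was also below it in all 4 NZO mice and above it in all others, at least 76.4-fold lower, but another probe of that gene gave 0.13 (adjusted p = 0.73 by limma). Obp2a, an odorant-binding protein, and 1110019D14Rik were below background in all NZO mice as well, with at least 10.8-fold and 11.6-fold lower levels.

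Other genes were lower by as much while still measured. Wfdc21, a small secreted protein of the whey acidic protein family, stood at 2.78, 3.21, 2.90 and 3.43 in NZO, against 8.12 to 9.07 (median 8.52) in the other strains, a difference of -5.54 ± 0.11. Cyp39a1, which hydroxylates 24-hydroxycholesterol on the way to bile acids, was at -2.77, -2.87, -2.41 and -2.81, against 0.60 to 3.87 (median 2.86). Slc25a17, a carrier of the peroxisome membrane for cofactors, was at 1.66, 1.41, 1.68 and 1.76, against 4.36 to 5.42 (median 4.85). Zfp780b, a zinc finger protein, was at -3.04, -3.49, -3.01 and -3.42, against 0.03 to 1.01 (median 0.30), and Cib3, a calcium-binding protein, differed by -4.54 ± 0.30. Lrit1, a retinal membrane protein, was above background in 1 NZO mouse of 4 and differed by -4.62 ± 0.21, though 129Ola was low too (-2.95 to -1.57). Against B6 and DBA alone the differences were -5.27 for Wfdc21, -4.61 for Cyp39a1, -3.05 for Slc25a17 and -3.53 for Zfp780b, so each kept most of its size with the protocol shared.

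Interferon-stimulated genes were more often higher than lower in NZO, and 2 members were among the private genes with the largest negative differences. Of 39 measured members of the list, 29 were higher (14.7% of all genes were) and 6 lower (17.1%), with a median difference of 0.92. Against B6 and DBA the numbers were 19 higher (11.4% of all genes) and 6 lower (9.59%), with a median of 0.42. Private to NZO were 11 higher members (2.04% of all genes) and 2 lower ones (1.91%). Mx1, a GTPase that blocks influenza virus, was at 2.30, 2.33, 2.20 and 2.32 in NZO, against -2.95 to 0.26 (median -0.74), a difference of 3.28 ± 0.24 and of 2.65 ± 0.26 against B6 and DBA. Mx2, its neighbour on chromosome 16 and a close relative, went the other way: -5.22, -4.91, -3.47 and -4.47 in NZO, against 1.24 to 2.16 (median 1.60), a difference of -6.16 ± 0.22, with 1 NZO array of 4 above background. The Mx1 probe lies at chr16:97668644-97668703 and the Mx2 probe at chr16:97782327-97782386 (mm9), and each gene had 1 tested probe.

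Ifit1, which binds viral RNA, was at 2.47, 1.87, 2.06 and 2.56 in NZO, against -2.25 to 0.60 (median -0.57). Isg15, a ubiquitin-like protein attached to other proteins after interferon, was at 6.16, 6.07, 6.10 and 6.06, against 3.43 to 5.50 (median 4.61). Oas1a, a sensor of double-stranded RNA, was at 4.86, 5.26, 5.14 and 5.09, against 1.72 to 4.34 (median 3.69). In all 3 the NZO mice were the top 4 of 20, as the definition of private requires. Within the others B6 and DBA were above C3H and 129Ola, as for Ifit1 with means of 0.26 in B6, 0.07 in DBA, -1.28 in C3H and -1.81 in 129Ola. Gbp6, a guanylate-binding protein, Ifit3b, Rsad2 (viperin, an antiviral radical enzyme) and Xaf1 differed by 2.51 ± 0.17, 1.93 ± 0.14, 1.87 ± 0.18 and 1.61 ± 0.15. The factor Irf7, with 1.78 ± 0.18, and Ifi44 and Igtp, with 1.78 ± 0.17 and 0.92 ± 0.21, complete the private higher members. Against B6 and DBA the 11 differences ran from 0.61 for Irf7 to 2.65 for Mx1. The upstream factors Irf9 and Stat2 had smaller differences, and neither was private: Irf9 differed by 0.47 ± 0.09 (adjusted p = 0.001) and Stat2 by -0.30 ± 0.10 (adjusted p = 0.024), both by limma, and against B6 and DBA neither passed (adjusted p = 0.055 for Irf9, and a difference of 0.00 ± 0.11 for Stat2).

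**Figure D4:**
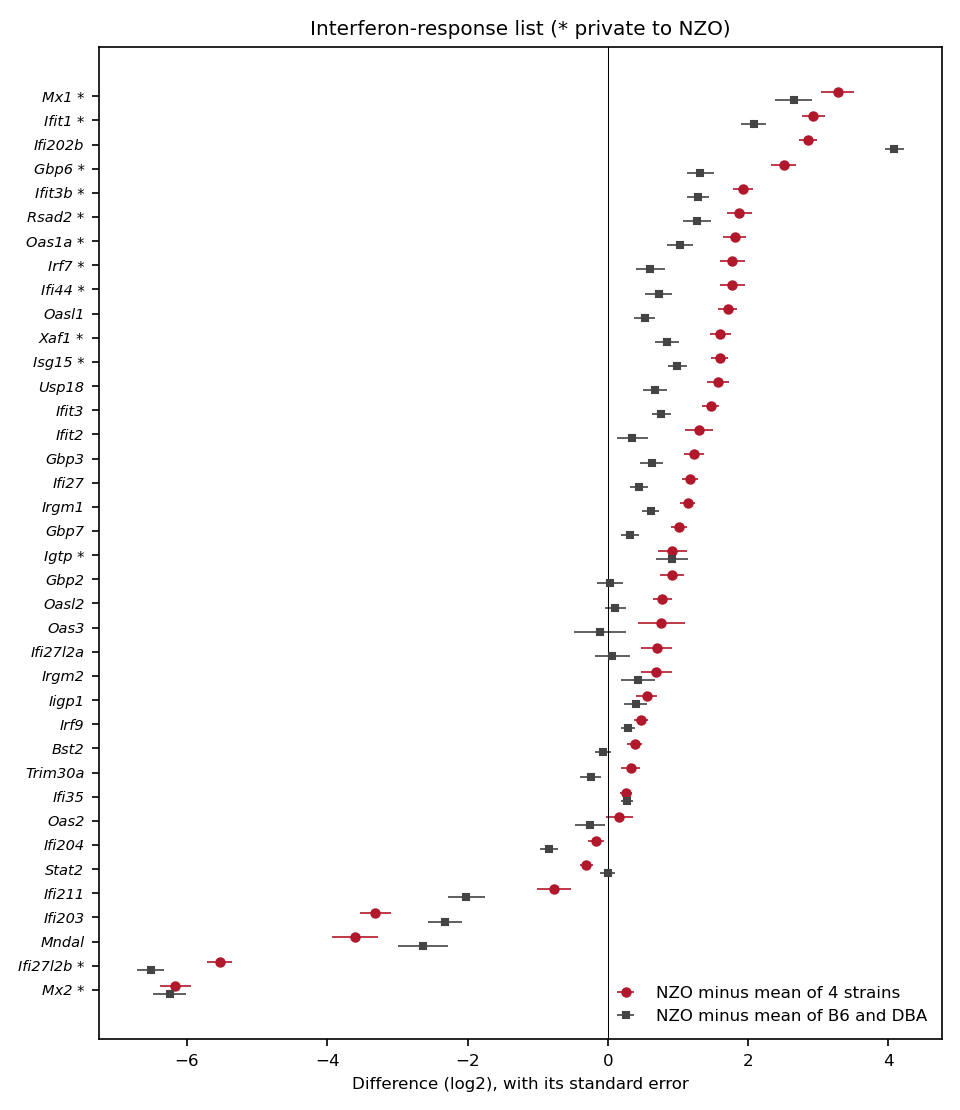
Points give NZO minus the mean of 4 strains (circles) and NZO minus the mean of B6 and DBA (squares) for 38 genes of the interferon list, in log2 units with standard errors, ordered by the first. Mx1 is at the top with 3.28 and Mx2 at the bottom with -6.16, and the 13 genes marked with a star are private to NZO.

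The lower end of the list held transcripts near background in some strains. Ifi27l2b was below background in every NZO mouse (-5.81, -5.84, -5.57 and -5.98) and above it in all others, at least 13.1-fold lower, and a second probe gave -1.08. Mndal and Ifi203, of the chromosome 1 cluster of interferon-inducible DNA-binding proteins, were lower too. Mndal was below background in all NZO mice and at least 7.62-fold lower than the mean of 4, and Ifi203 differed by -3.31 ± 0.22. In both the NZO range overlapped that of DBA, which was low as well. Ifi202b of the same cluster, an obesity candidate gene of New Zealand mice, was at 2.16, 1.89, 2.09 and 1.96 in NZO, at 2.13 to 2.33 in DBA and below background in all B6 mice (-6.60 to -6.07). Against the mean of 4 it was at least 5.12-fold higher, with C3H and 129Ola between (-0.03 to 0.91 and 0.30 to 0.59), and the overlap with DBA keeps it from being private.

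Promoters of private interferon genes that were higher in NZO are shown because the letters of a known response element can be looked for in them. The letters GAAA, then any 2 bases, then GAAA again, the core of the interferon-stimulated response element, were searched on both strands (overlapping matches counted) from 250 bases before to 50 bases after each RefSeq start (GRCm38.p6). They stood in 6 of 9 private higher members with an entry (66.7%), in 13 of 19 members of the list that were not private (68.4%) and in 3.99% of the 27025 genes of the table. Over all private genes with an entry, 19 of 212 higher ones (8.96%) and 12 of 249 lower ones (4.82%) held them, against 3.89% of genes tested. A match is a description of these letters in the reference strain and says nothing of the NZO sequence. The 250 bases before the start of 3 private higher genes follow, 5′ to 3′ on the strand of the gene, with every match in capitals: Isg15 at chr4:156200819-156201068 on the minus strand, Ifit1 at chr19:34640639-34640888 on the plus strand and Oas1a at chr5:120907526-120907775 on the minus strand.
Isg15: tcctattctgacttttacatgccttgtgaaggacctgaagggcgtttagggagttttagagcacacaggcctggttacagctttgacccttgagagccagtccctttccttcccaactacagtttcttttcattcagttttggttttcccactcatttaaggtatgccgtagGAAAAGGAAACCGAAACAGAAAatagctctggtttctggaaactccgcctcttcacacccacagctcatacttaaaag
Ifit1: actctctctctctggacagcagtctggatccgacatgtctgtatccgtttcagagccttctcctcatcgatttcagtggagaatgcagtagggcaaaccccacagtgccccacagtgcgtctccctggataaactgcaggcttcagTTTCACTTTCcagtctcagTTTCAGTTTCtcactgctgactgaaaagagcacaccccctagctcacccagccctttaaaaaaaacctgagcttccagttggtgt
Oas1a: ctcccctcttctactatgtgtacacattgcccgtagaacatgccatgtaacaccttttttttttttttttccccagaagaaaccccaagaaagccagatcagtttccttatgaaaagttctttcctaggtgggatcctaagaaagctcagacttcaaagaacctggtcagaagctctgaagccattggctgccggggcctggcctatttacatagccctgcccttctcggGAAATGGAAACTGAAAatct

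MHC and antigen-processing genes were also more often higher than lower in NZO, with fewer calls against B6 and DBA. Of 25 measured members, 16 were higher (14.7% of all genes were) and 3 lower (17.1%), with a median of 0.42. The numbers against B6 and DBA were 7 higher (11.4% of all genes) and 2 lower (9.59%), with a median of 0.12. The 5 private ones were all higher (2.04% of all genes were private and higher). H2-Q10, a secreted class I protein of the liver, was at 9.31, 9.05, 9.17 and 9.11 in NZO, against 7.08 to 8.50 (median 7.96), and a second probe gave 1.27. H2-Q7 and H2-T24 differed by 0.85 ± 0.09 and 1.53 ± 0.12, Tap2, a peptide transporter, by 0.78 ± 0.08, and Psmb8, a subunit of the immunoproteasome, by 0.84 ± 0.15. For Psmb8 the difference from B6 and DBA was 0.44 ± 0.17 (adjusted p = 0.073) and did not pass. Class I genes of different strains carry different alleles and resemble each other closely, so a probe may bind alleles and neighbours unequally, and these values are uncertain for that reason. H2-Q1 was lower in NZO and in DBA (-6.10 to -5.66 and -5.99 to -5.24), both below background.

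Summed markers of immune cells overlapped between NZO and the other strains. The summed level of 25 Kupffer cell and macrophage markers (log2) was 7.91 to 8.12 in NZO and 7.31 to 8.79 in the others. Of these markers 5 were higher (14.7% of all genes were) and 2 lower (17.1%), with 8 higher without C3H mouse 1. Lyz1, a lysozyme, was the 1 private member (1.50 ± 0.14), near the share of all genes (3.95%). The summed level of 11 neutrophil markers was 6.72 to 7.27 in NZO and 6.99 to 7.70 in the others. Of these, 6 were higher (14.7% of all genes were) and 2 lower (17.1%), and 2 were private (3.95% of all genes): Ly6g (2.58, 1.96, 2.63 and 2.41, against 0.20 to 0.99 (median 0.53)) and Camp, an antimicrobial peptide of neutrophil granules (1.91, 0.85, 0.57 and 1.33, against -1.91 to 0.46 (median -1.21)). The 13 lymphocyte markers had a summed level of 4.97 to 5.72 in NZO and 4.67 to 5.73 in the others, with none private. The part of these cells in the interferon result was not tested.

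Genes known to be higher in female mouse liver were among the private higher genes of these males. Of 21 members of the list, 15 were measured. Of these, 6 were higher (14.7% of all genes were) and 3 lower, close to the 17.1% of all genes, with a median of 0.82. Relative to B6 and DBA 6 were higher (11.4% of all genes) and 1 lower (9.59%), with a median of 0.76. The 5 private ones of the list were all higher (2.04% of all genes were private and higher): Hao2, Cyp3a16, Cyp2b9, A1bg and Cyp2b10. The list is not complete. Outside it, the female-type Cyp3a41b was private and higher (6.08 ± 0.39), and Cyp2a4 was private and lower (-1.41 ± 0.22). Hao2, a peroxisomal hydroxyacid oxidase, was at 0.98, 0.73, 1.76 and 0.87 in NZO, against -5.94 to -1.02 (median -4.40), at least 30.7-fold higher than the mean of 4. Its highest values outside NZO were 1 mouse each of DBA, C3H and 129Ola, at -2.10, -2.34 and -1.02. Cyp3a16 was at 6.93, 6.35, 7.09 and 6.92 in NZO, against 0.82 to 6.06 (median 3.42). Cyp2b9 and A1bg, a plasma glycoprotein of unknown function, were below background in all 16 other mice, and NZO was at least 4.27-fold and 2.83-fold higher than the mean of 4. Both passed the filter through NZO alone and could only come out higher, so the higher and private counts of this list are partly fixed by the filter. Cyp2b10, which responds to the xenobiotic receptor CAR, was at 1.23, 0.32, 1.92 and 0.98 in NZO and at -0.43 to 0.31 in 129Ola, so the 2 strains adjoin. The 3 lower members were Sult1e1, an estrogen sulfotransferase, Ntrk2, a neurotrophin receptor, and Prom1, a membrane glycoprotein, with -1.21 ± 0.43, -0.99 ± 0.32 and -0.52 ± 0.13, and the first 2 did not pass against B6 and DBA (adjusted p = 0.26 for Sult1e1 and 0.13 for Ntrk2). With only genes above background on all 20 arrays, 6 members were left, 2 higher and 2 lower, and their median was -0.16, so the direction of this list rests on genes that are dim in some strains.

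Genes known to be higher in males were called about as often as all genes. Of 21 measured, 4 were higher (14.7% of all genes were) and 3 lower (17.1%), with a median of 0.10. Susd4, a complement regulator, was private and lower, at -0.14, 0.85, -0.01 and -0.16 in NZO, against 3.36 to 5.37 (median 4.36). Mup20, a major urinary protein, was at 9.18, 8.65, 8.26 and 8.99, against 9.23 to 10.70 (median 10.29) by its brightest probe, and a second probe gave 0.40. The Mup genes are near-identical copies and their probes bind several of them. Cyp4a12a and Cyp4a12b, the male P450 genes, differed by 0.17 ± 0.13 (adjusted p = 0.34) and 0.10 ± 0.12 (adjusted p = 0.59), and by 0.55 and 0.51 from B6 and DBA, where both passed (adjusted p = 0.0096 and 0.011) with B6 the low strain.

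The P450 genes of drug metabolism split in both directions within their clusters. Of 27 measured, 9 were higher (14.7% of all genes were) and 10 lower (17.1%), and 4 of the higher (2.04% of all genes) and 5 of the lower (1.91%) were private. Cyp2c37, Cyp2c38, Cyp3a25, Cyp2a4 and Cyp1a2 were the private lower ones. Cyp2c38 was at 4.79, 4.48, 4.79 and 4.56 in NZO, against 5.45 to 7.65 (median 6.18). Cyp3a25 was at 5.09, 4.40, 5.18 and 5.03, against 5.71 to 7.79 (median 6.79), while Cyp3a16 in the same cluster was higher. Cyp2a4 differed by -1.41 ± 0.22, and lies near Cyp2b9 and Cyp2b10 on chromosome 7. Cyp1a2, a caffeine-metabolising enzyme induced through the aryl hydrocarbon receptor, was at 3.82, 4.05, 4.24 and 3.95, against 4.35 to 6.73 (median 4.71), with DBA highest. Cyp2c37 differed by -2.51 ± 0.18 on its brightest probe and by -0.42 on another (adjusted p = 0.14 by limma), so its size depends on the probe. Among the higher, Cyp2c68 was private (8.22, 8.30, 8.47 and 8.24, against 6.18 to 7.99 (median 7.36)), and Cyp3a44 was at least 15.0-fold higher than the mean of 4 with ranges that overlapped.

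Glutathione S-transferases of the mu class gave a dense group of private genes. These enzymes attach glutathione to reactive compounds, and their genes lie together on chromosome 3. Of 33 measured conjugation and antioxidant genes, 3 were higher (14.7% of all genes were) and 9 lower (17.1%). Without NZO mouse 7, 6 members were higher. All 5 private ones were lower by their brightest probes (1.91% of all genes were private and lower). These were Gstm6, Gstm2, Gstm3 and Gstm4 of this cluster, and Sult1a1, a sulfotransferase (-1.58 ± 0.15). Another probe of Gstm4 was private and higher. Gstm5 and Gstm7 of the cluster are not on the list. By their brightest probes Gstm5 was private and lower and Gstm7 private and higher, so the single direction depends on the members listed. Gstm6 was at 1.46, 1.78, 1.72 and 1.37 in NZO, against 4.44 to 6.34 (median 5.19), and its other 2 probes gave -3.89 and -3.77. Gstm2 was at 2.24, 1.79, 1.69 and 2.04, against 4.81 to 5.81 (median 5.12), and its other 2 probes gave -3.05 and -3.55. All 3 probes of each gene put every NZO mouse below every other mouse.

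Other members of the cluster depended on the probe. Gstm3 differed by -1.95 on its brightest probe and by -6.39 on another, both private. Gstm4 was private in opposite directions, with -1.10 on the brighter probe (2.75 to 3.03 in NZO, against 3.29 to 4.81) and 1.04 on the dimmer (3.31 to 3.66, against 2.00 to 2.98). Gstm7 was higher on its brightest probe (4.92, 4.71, 4.80 and 4.81 in NZO, against 2.44 to 3.06 (median 2.70)), a difference of 2.11 ± 0.09, and level on the other (0.02 ± 0.10). Gstm1 was not private on its brightest probe (0.08 ± 0.12), which the array's annotation places on chromosome 5, and private and lower on the probe placed in the cluster (4.29, 4.59, 4.21 and 4.14 in NZO, against 5.40 to 6.81 (median 5.77)). Gstm5, at 0.34, 0.12, 0.64 and 0.29, against 1.00 to 2.21 (median 1.73), had 1 probe. The calls for Gstm3, Gstm4, Gstm7 and Gstm1 are therefore uncertain in size or in sign.

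**Figure D5:**
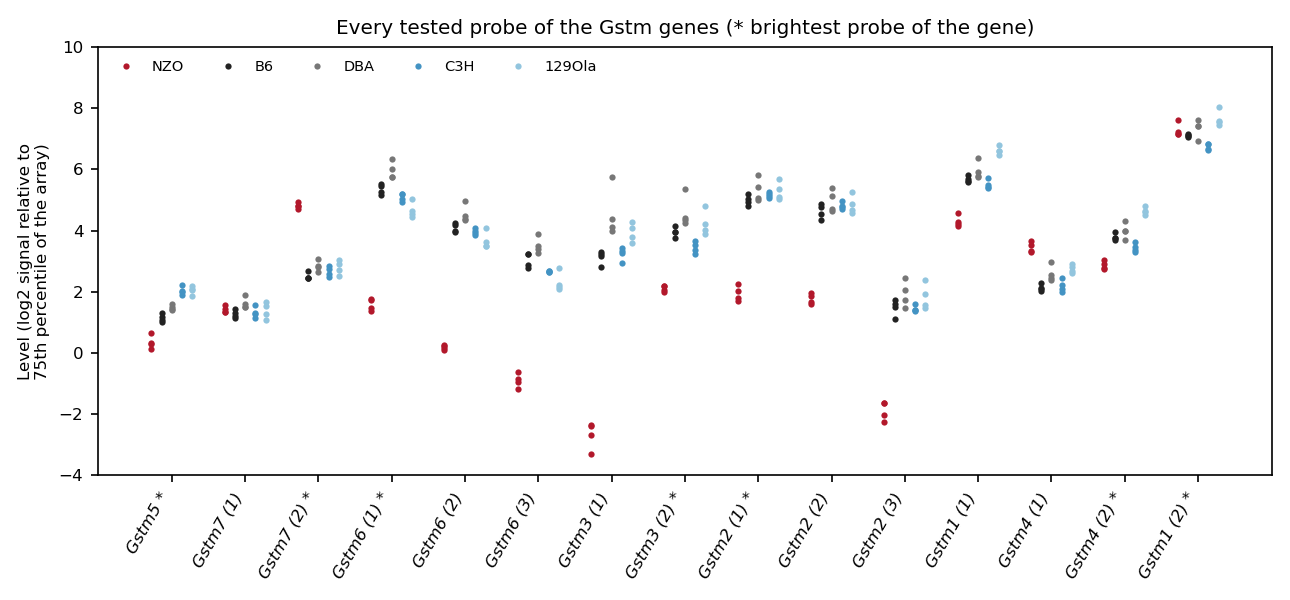
Each point is 1 mouse on 1 probe, as log2 signal relative to the 75th percentile of the array, for all 15 tested probes of 7 Gstm genes in the order of their annotated positions. NZO (red) is lowest on 11 probes, highest on 2 and among the others on 2, and Gstm4 has a probe of each kind.

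The 5 probes that follow are shown because genes of 1 family differed in opposite directions on them. They are given in the order of the cluster in mm9 coordinates, which can span an intron: Gstm5 at chr3:107701101-107701160, Gstm7 at chr3:107732073-107733247, Gstm6 at chr3:107745052-107745111, Gstm3 at chr3:107769290-107770549 and Gstm4 at chr3:107846495-107846847. The longest run of bases that any 2 of the 15 Gstm probes share is 11, between the Gstm7 and Gstm6 probes shown and 2 further pairs. The differences were -1.33 ± 0.09 on the Gstm5 probe, 2.11 ± 0.09 on the Gstm7 probe, -3.77 ± 0.13 on the Gstm6 probe, -1.95 ± 0.17 on the Gstm3 probe and -1.10 ± 0.09 on the Gstm4 probe. Whether the NZO genome matches these bases is not known from these files.
Gstm5: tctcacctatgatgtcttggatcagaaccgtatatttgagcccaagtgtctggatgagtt
Gstm7: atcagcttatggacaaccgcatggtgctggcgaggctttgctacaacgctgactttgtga
Gstm6: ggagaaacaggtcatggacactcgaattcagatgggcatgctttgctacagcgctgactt
Gstm3: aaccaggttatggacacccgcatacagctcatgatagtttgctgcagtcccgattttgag
Gstm4: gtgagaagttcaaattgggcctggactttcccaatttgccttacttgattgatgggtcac

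Bile acid and sterol transport genes were lower in NZO more often than higher. Of 31 measured, 12 were lower (17.1% of all genes were) and 1 higher (14.7%), with a median of -0.16 that moved to -0.05 without NZO mouse 7. Relative to B6 and DBA 10 were lower (9.59% of all genes) and 2 higher (11.4%), with a median of -0.08. The 6 private ones were all lower (1.91% of all genes were private and lower). After Cyp39a1 came Osbpl3, an oxysterol-binding protein (-3.74, -4.20, -3.59 and -3.86 in NZO, where 1 array of 4 was above background, against -2.66 to 0.33 (median -1.52)), and Abcc3, which exports bile acid conjugates to blood (2.46, 2.38, 2.41 and 2.42, against 3.48 to 4.81 (median 4.16)). Scarb1, the receptor that takes up cholesterol from HDL, was at 3.45, 3.51, 3.39 and 3.17, against 4.16 to 5.18 (median 4.61), and its second probe gave -1.30. Abcb11, the bile salt export pump, was at 6.06, 5.98, 6.08 and 5.66, against 6.64 to 7.66 (median 7.09), and Acox2, a peroxisomal oxidase that shortens the bile acid side chain, differed by -0.87 ± 0.09. For all 6 the NZO mice were the lowest 4 of 20, as the definition of private requires. Abcg8, part of the transporter that puts sterols into bile, fell too (-1.08 ± 0.24, adjusted p = 0.0028 by limma), with values that overlapped.

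Cholesterol synthesis genes that passed the test were all higher, and none was private. Of 25 measured, 12 were higher (14.7% of all genes were) and none lower (17.1%) against the mean of 4, with a median of 0.33. In the comparison with B6 and DBA 11 were higher (11.4% of all genes) and none lower (9.59%), with a median of 0.45, and with scan day as a block 6 were higher. At an unadjusted p under 0.05 in limma 17 and 18 were higher and none lower. C3H was as high or higher for some of them: Sqle, squalene epoxidase, averaged 4.84 in NZO, 3.99 in B6, 3.99 in DBA, 5.72 in C3H and 1.05 in 129Ola. Hsd17b7, an enzyme of the same path, rose by 0.93 ± 0.14 (adjusted p = 5.4e-05 by limma).

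Lists of lipid and glucose metabolism held 1 private member or none each, with 3.95% of all genes private. Of all genes 14.7% were higher and 17.1% lower, and some of these lists departed from those shares. Of the gluconeogenesis and glycolysis list 40.9% were higher, and of the fatty acid oxidation list 27.3% were lower. Against B6 and DBA the first had 8 higher and 2 lower members and the second 4 higher and 4 lower (11.4% and 9.59% of all genes). Of 24 fatty acid and triglyceride synthesis genes, 3 were higher and 4 lower, and Srebf1, the lipogenic transcription factor, was the 1 private gene, at 1.23, 0.68, 0.91 and 1.15 in NZO, against 1.36 to 2.84 (median 1.99). No member of the lipid droplet list (3 higher and 4 lower of 20), of the fatty acid oxidation list (2 and 9 of 33), of the gluconeogenesis and glycolysis list (9 and 2 of 22) or of the circadian list (none of 16 called, and 1 higher and 1 lower at an unadjusted p under 0.05 in limma) was private. Without NZO mouse 7, 5 oxidation genes were lower in place of 9, and without NZO mouse 3, 5 genes of gluconeogenesis and glycolysis were higher in place of 9. Pltp, a phospholipid transfer protein of plasma, was the private member of the 22 apolipoprotein and lipoprotein genes (0.64 ± 0.09). Of these 22 genes, 5 were higher and 5 lower against the mean of 4. Against B6 and DBA 8 were higher (11.4% of all genes) and none lower (9.59%), and with scan day as a block 4 were higher. Pctp, the phosphatidylcholine transfer protein, was at 0.45, -0.54, -0.02 and -1.08 in NZO, against 0.85 to 2.11 (median 1.41), a difference of -1.78 ± 0.20 and of -2.07 ± 0.22 from B6 and DBA.

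Secreted proteins of metabolism included private genes in both directions. Igfbp2, a binding protein that restrains IGF, was at 2.03, 2.68, 2.93 and 0.90 in NZO, against 4.74 to 7.09 (median 5.71), and a second probe gave -3.82. Igf1 was higher at 8.05, 7.92, 7.81 and 7.88, against 6.89 to 7.67 (median 7.29), and of 4 further Igf1 probes 3 were higher and 1 was level (-0.06). Of 25 genes of insulin signalling and the IGF axis 6 were higher (14.7% of all genes were) and 8 lower (17.1%), with 5 lower without NZO mouse 7. Igfbp2 and Igf1 were the private ones, 8% of the list against 3.95% of all genes. Serpina12, the adipokine vaspin, was at 1.06, 0.88, 1.06 and 0.82 in NZO, against -6.06 to 0.68 (median -2.66); B6 and C3H were close (-1.16 to 0.24 and 0.14 to 0.68) and DBA and 129Ola below background. Angptl6, an angiopoietin-like hepatokine, differed by -0.64 ± 0.09. Of 35 genes of the acute phase and complement list 9 were higher (14.7% of all genes were) and 5 lower (17.1%), with 3 lower without NZO mouse 11. Private members made up 8.57% of it (3.95% of all genes). Orm3, an acid glycoprotein, was lower at -2.50, -2.37, -2.69 and -2.39, against -1.15 to 2.65 (median 1.00), and Lcn2, the siderophore-binding lipocalin, differed by -2.27 ± 0.49. Mbl2, the mannose-binding lectin, was higher at 9.40, 9.14, 9.28 and 9.19, against 5.27 to 8.89 (median 8.56), with 129Ola far below the rest (5.63 on average).

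Of 8 candidate genes for obesity and diabetes in New Zealand mice, 7 were measured, and Pctp was the private one. Zfp69 was below background in all NZO mice (-5.24 to -4.06) and at least 1.85-fold lower than the mean of 4, but its NZO values overlapped those of B6 (-5.08 to -3.31). Tbc1d1, a regulator of glucose transporter traffic, differed by -0.29 ± 0.08 (adjusted p = 0.012 by limma), did not pass against B6 and DBA (adjusted p = 0.06), and had 0.15 on its second probe (adjusted p = 0.62 by limma). Lepr, Abcg1 and Apoa2 did not pass, with differences of 0.24 ± 0.31, -0.05 ± 0.11 and 0.18 ± 0.07 (adjusted p = 0.59, 0.77 and 0.063).

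Markers of hepatic stellate cells and matrix were lower in NZO where they passed the test. Of 24 measured, none were higher (14.7% of all genes were) and 9 lower (17.1%), with a median of -0.25 that moved to -0.12 without NZO mouse 11. Against B6 and DBA none were higher (11.4% of all genes) and 11 lower (9.59%), with a median of -0.34. From the NZO, B6 and DBA arrays alone 7 were lower, and with scan day as a block 6. At an unadjusted p under 0.05 in limma, 1 was higher and 12 lower against the mean of 4, and none and 13 against B6 and DBA. The summed level of the list (log2) was 7.22 to 7.55 in the 4 NZO mice, below the range of the other 16 (7.60 to 8.13), while the mean level of its members overlapped, at 0.21 to 0.66 in NZO and 0.58 to 0.98 in the others. Private were Dcn, the proteoglycan decorin (5.85, 5.71, 5.51 and 5.61 in NZO, against 5.90 to 6.67 (median 6.31)), and the platelet-derived growth factor receptors Pdgfra (-1.61, -1.84, -1.67 and -1.70, against -1.54 to -0.55 (median -1.12)) and Pdgfrb (-1.01 ± 0.08). Rgs5, of pericytes and stellate cells, fell by 1.13 (adjusted p = 7.7e-06 by limma) without being private. For sinusoidal endothelial markers the summed level was 7.25 to 7.67 in NZO and 7.22 to 7.84 in the others, with 2 of 20 members higher and 2 lower.

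Some private genes lay in runs along the chromosomes. Joining private genes with a symbol that passed both comparisons and lay within 1 Mb of each other gave 50 runs of 3 or more. There were 585 such genes, and most of them lay in no run. Of all genes tested, with or without a symbol, 3.78% were private and passed both comparisons. The runs described below were picked for their length, so their shares do not stand for the other runs. The longest had 14 members among 50 genes tested, at chr3:105789989-108481694 (mm9), and held the Gstm genes with Ovgp1, an oviduct glycoprotein (at least 2.56-fold lower), Kcna2, a potassium channel (at least 1.41-fold lower), Dennd2d (-0.93), Ampd2, an AMP deaminase (0.79), Lrif1 (0.73), Tmem167b (0.74), Clcc1 (-0.49) and Cyb561d1 (-1.43, with -0.19 on a second probe). The second had 13 of 166 at chr17:34018375-37618439, the MHC region, where Kifc1, a mitotic motor, was at least 2.63-fold higher and Ring1, a Polycomb protein, lower (-1.64, with 3 of 4 NZO arrays above background).

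The third run had 10 of 45 at chr6:82042915-84486315. It held Pole4 and Cd207 with Rtkn (-1.75), Dysf, the membrane repair protein dysferlin (-1.52), Slc4a5, a bicarbonate transporter (1.55), and Nagk, N-acetylglucosamine kinase (1.41). The fourth had 9 of 78 at chr7:51747326-53339570, with Il4i1, an amino acid oxidase (-2.14), Flt3l, the ligand of Flt3 (-1.56), Slc6a21 (at least 1.61-fold lower), Ppfia3 (1.13), Snrnp70, a spliceosome protein (-1.06), and the ferritin light chain Ftl1 (0.77). The fifth had 9 of 70 at chr15:74789592-76533922, in which Ly6e (1.27), Ly6a, Ly6c1, Ly6g and 9030619P08Rik (2.46) stood side by side and were all higher. Ly6 genes are paralogs whose probes may share targets.

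Members of a run went both ways, as in the first with 4 higher and 10 lower. By chromosome the private share of genes tested ran from 5.30% on chromosome 11, 5.03% on 15 and 4.86% on 17 to 2.25% on X and 2.17% on 13, against 3.95% in all, and 0 of 11 genes on Y were private. Neither the number nor the length of runs was tested.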

How the data were processed

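Total RNA of 20 livers was labelled with Cy3 and hybridised to Agilent mouse arrays, 1 array a mouse. The deposited values used here are background-corrected spot intensity values as the authors' Feature Extraction software wrote them, per the file headers (C3H and 129Ola arrays carry the later protocol, and the submitters' processing notes name version 9.1 where the headers name later ones). The deposited series table of 37892 probes, used as an alternative, held the authors' intensity values on a linear scale, with a median of 19.9 in every column, and its centring is not given in the sources used here. Each of its 20 columns had its highest rank correlation with the same array's intensity (0.955 or more).

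From the intensities, control and outlier spots were left out (39 probes lost all spots), spots of a probe were averaged, log2 was taken and the 75th percentile of each array subtracted. A probe was kept (28432) when some strain had it above background in all its mice, and the brightest probe stood for a gene (20635 genes, 15082 of them on 1 probe). Names came from RefSeq (GRCm38.p6) for 27641 of 29107 probes with a RefSeq accession, and coordinates are those of the array's annotation (mm9). limma 3.58.1 (R 4.3.3) was fitted with a mean per strain over all 20 arrays, two-sided, at an adjusted p of 0.05. The 4 mice of a strain are separate animals. The number of arrays, 4 a strain, limits the precision. Where no array of a strain was above background, the strain entered at the lowest signal well above background on each array, or at the gene's own signal if that was higher, and the result is given as "at least N-fold", from means of log2 values.

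Named genes were private genes past the threshold in both comparisons: the 12 higher and 12 lower with the largest difference, the 6 and 6 with the widest gap among genes above background on all arrays, up to 4 in each of 31 gene lists (2 past the threshold where none qualified), all candidate genes, and the members of the 5 longest runs. A few genes are not reported here. Other named genes were chosen after their values were seen. Private genes, lists and rules were all chosen with earlier results of these data known. Alternatives tried were the background correction, the normalization, the filter, the rule for probes, the authors' table, the strains compared, scan day, slide, a replicate block, an intensity trend and leaving out each mouse. The procedure was tested on simulated data.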

Additional observations from a re-analysis of the deposited data

Results flagged for a closer look

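A mouse stood apart from the other 3 of its strain by Dixon's ratio of its gap to the strain's range, and chance alone gives this in about 1 in 20 strain groups. Over 240 groups tested, from 109 named genes and 11 marker lists, 14 stood apart, which is close to that share. The level of Susd4 was 0.85 in NZO mouse 7, against -0.16 to -0.01 in the other NZO mice, and Stk19 at 2.28, against 2.53 to 2.56. Obp2a was at -6.15 in NZO mouse 9 and -5.90 to -5.86 in the others, all below background. Snrnp70 was at 3.26 in NZO mouse 3, against 3.49 to 3.50. The mean of skeletal muscle markers was 2.16 in NZO mouse 7 and -2.80 to -2.10 in the other NZO mice.

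Outside NZO, Cyp3a41b was at 3.91 in DBA mouse 15 and at 1.37 to 1.52 in the other DBA mice. Hao2 was at -2.10 in DBA mouse 5 (others -3.97 to -3.67), at -2.34 in C3H mouse 5 (others -5.00 to -4.76) and at -1.02 in 129Ola mouse 9 (others -4.47 to -4.24). Dct was at 2.97 in B6 mouse 9 (others 3.23 to 3.27), and Pole4 at -2.01 in B6 mouse 15 (others 0.52 to 0.62). A4gnt was at -5.21 in C3H mouse 5 (others -3.53 to -3.35). Ly6a was at 0.40 in 129Ola mouse 9 (others up to 1.22), and Zfp780b at 0.40 in DBA mouse 8 (others 0.28 to 0.30).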

How the results depend on the processing

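The number of private genes depends on which strains are compared. Against B6 and DBA alone, 1107 genes lay higher and 771 lower in all 4 NZO mice, the same numbers as from the NZO, B6 and DBA arrays alone, and against C3H and 129Ola alone 1800 higher and 2679 lower. The lower calls against the mean of 4 (3533) became 6731 with no filter on dim probes, 1979 against B6 and DBA alone and 5828 against C3H and 129Ola alone. Animal numbers do not pair mice of different strains (correlations of deviations from -0.26 to 0.38), and with a replicate block the calls were 1325 higher and 1482 lower against the mean of 4, and 711 higher and 610 lower against B6 and DBA. The 0.38 was between NZO mouse 9 and DBA mouse 9, whose arrays shared a slide and a scan day. With slide as a random block, 2794 genes were higher and 3010 lower against the mean of 4. Against B6 and DBA that block gave 2976 higher and 2269 lower. Leaving out each mouse in turn gave 2344 to 3256 higher and 2641 to 3932 lower genes against the mean of 4, 1594 to 2463 and 1536 to 2171 against B6 and DBA, and 425 to 628 higher and 398 to 527 lower private genes. Of the 815 private genes, 689 stayed private with normexp and quantile normalization together, 715 with quantile normalization alone, 715 with the mean of all probes, and 644 of 771 in the authors' table. With only genes above background on all arrays it was 601 of 604, and 1 turned to the other direction through another probe. The replicate block left no higher gene of gluconeogenesis and glycolysis (9 without it), 3 higher acute phase genes (9), 3 lower fatty acid oxidation genes (9), 3 higher and 3 lower genes of the insulin and IGF list (6 and 8), 7 lower bile acid genes (12), 7 higher cholesterol genes (12) and 3 higher neutrophil genes (6). Acute phase genes higher than in B6 and DBA were 2 with scan day as a block (9 without it). Over 137 named genes and 34 alternatives, 4567 of 4615 values kept direction and side of the threshold, 40 lost the call, 6 gained it and 2 reversed. Of these genes, 110 were chosen as private and past both comparisons in these same arrays, and they gave 3706 of the values (3700 unchanged). Only 14 of the alternatives did more than leave out 1 mouse. The selection therefore nearly fixes this agreement, which is no independent test of the genes. Both reversals were Hsd17b13 (0.89), a lipid droplet protein. It was at -1.39 with the mean of its probes, of which the other was at -3.66. On the same brightest probe it was at -0.0481 against B6 and DBA alone, so the 0.89 rests on C3H and 129Ola, which have the other extraction protocol. The cause of either reversal was not tested. Without a filter the median of all genes moved to -0.11. Genes below background in NZO or in a whole strain have only a bound.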
